A study of Homo sapiens with 8 samples.

Results

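The APOBEC3 genes, a family of cytidine deaminases encoded side by side on chromosome 22, were examined in 5637, an established cell line from a human bladder cancer. The family was taken by gene name and comprised 7 genes, APOBEC3A, APOBEC3B, APOBEC3C, APOBEC3D, APOBEC3F, APOBEC3G and APOBEC3H. Of these, 5 had a row among the 16547 genes of the deposited mRNA count table, and 4 were among the 13362 genes with enough reads to be tested. APOBEC3A and APOBEC3H had no row there, and their RNA level was not analysed here. In the lists of N1-methyladenosine (m1A) peaks, 4 peaks carried the name of a member, 3 of them APOBEC3C and 1 of them APOBEC3A.

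APOBEC3 enzymes remove the amino group of cytosine in single-stranded DNA and turn it into uracil, which restricts retroviruses and transposable elements. The same reaction on the cell's own DNA leaves C-to-T and C-to-G changes in a TpC context, a mutation pattern that is prominent in bladder cancer and is attributed mainly to APOBEC3A and APOBEC3B. APOBEC3B is held in the nucleus, whereas APOBEC3G and APOBEC3F are cytoplasmic and are packaged into HIV particles that lack the viral protein Vif. The genes arose by duplication and share long stretches of similar sequence, so reads from one member can be assigned to another or dropped, and every value below is uncertain to that extent.

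The control cells carry the genotype label WT and the other group the label TRMT61A knockdown. Per the series' design text the knockdown was stable, and the labels used here do not say whether either group was a clone or a pool of cells. TRMT61A is the catalytic subunit of an enzyme that places m1A in tRNA and in some mRNAs. Each group had 2 samples, each with an input library and an m1A immunoprecipitation, and nothing in the labels says that the 2 came from separate cultures, so p-values measure only the spread between these samples. The comparison asks how RNA level and m1A peaks of these genes differ when TRMT61A is reduced.

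Input libraries held 30046283 to 42177927 counts. Levels are given as CPM, reads scaled to a common library size after TMM, a correction for library composition. TRMT61A itself measured 19.8 and 14.7 CPM in the control inputs and 13.4 and 6.71 CPM in the knockdown inputs, so its groups stood apart but knockdown replicate 1 lay near control replicate 2. Its log2 fold change was -0.78 ± 0.29 (SE, n = 2 per group, edgeR adjusted p = 1.00). It was -1.36 without knockdown replicate 1 (edgeR adjusted p = 0.00142) and -0.36 without knockdown replicate 2. Epithelial markers (9 of 9 listed) summed to 3455 to 4049 CPM in control inputs and to 3673 to 3973 CPM in knockdown inputs. Of these, 4 were higher and 5 lower after knockdown, and 0 passed the adjusted threshold. The smallest p was that of TP63, at 0.25 ± 0.08 (log2 fold change ± SE, edgeR unadjusted p = 0.0117). Markers of T and NK cells, which are rich in APOBEC3G, summed to at most 0.0945 CPM in control and 0.026 CPM in knockdown over the 4 of 5 that were listed. B cell markers (3 of 3) reached at most 0.614 and 0.284 CPM, and myeloid markers (4 of 5) 1.31 and 1.57 CPM. Fibroblast markers (5 of 5) summed to 34.7 and 38.9 CPM in control and to 29.4 and 44.7 CPM in knockdown, mostly from COL1A1. Endothelial markers (3 of 3) summed to 1.65 and 2.43 CPM against 0.954 and 1.87 CPM, with PECAM1 at -1.99 ± 0.77 (log2 fold change ± SE, edgeR unadjusted p = 0.0309, adjusted p = 1.00) on 2 to 27 reads per input. The part of these markers in the members' values was not tested. CD3D and AIF1 had no row.

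No member passed the test between knockdown and control. Of the 4 tested members, 0 passed edgeR's quasi-likelihood test after Benjamini-Hochberg adjustment over all genes, 0 had an unadjusted p under 0.05, and DESeq2 and limma-voom also called 0. The background was low too, with 0.0374% of all tested genes past the threshold and 3.3% with an unadjusted p under 0.05. The CPM of both knockdown inputs lay on one side of both control inputs for 1 of the 4 members, against 30.3% of all tested genes (15.6% with knockdown higher and 14.7% with knockdown lower). In bulk RNA a lower level in every cell and fewer cells with the RNA cannot be told apart.

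APOBEC3B, the nuclear member linked to mutation of tumour genomes (chromosome 22, 38982347 to 38992779), had the largest log2 fold change of the 4 tested members. It had 249 and 538 reads in the control inputs and 475 and 590 in the knockdown inputs, which is 8.39, 12.7, 12.2 and 15.3 CPM in that order. Control replicate 1 was the lowest and knockdown replicate 2 the highest, and the groups overlapped because control replicate 2 exceeded knockdown replicate 1. The control mean was 10.6 ± 3.05 CPM and the knockdown mean 13.8 ± 2.18 CPM (SD, n = 2 each), a ratio of 1.31, while the control replicates alone differed 1.51-fold.

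The log2 fold change of APOBEC3B was 0.38 ± 0.22 (SE), with a 95% interval of -0.11 to 0.87 and an edgeR adjusted p of 1.00 (unadjusted p = 0.116). That interval spans from 0.923-fold to 1.83-fold, which includes no change as well as a rise of the size seen between the control replicates. By unadjusted p the gene ranked 1236 of 13362. Without control replicate 1 the log2 fold change was 0.12, and without control replicate 2 it was 0.71 with an edgeR unadjusted p of 0.0116 and an adjusted p of 1.00. Without knockdown replicate 2 it was 0.21. Without knockdown replicate 1, the knockdown input with more TRMT61A reads, it was 0.53 (edgeR unadjusted p = 0.0248, adjusted p = 0.366). The positive sign was thus kept without each library, while the size moved with both control and both knockdown libraries. An antisense transcript, APOBEC3B-AS1, shares 1221 bases of genome with APOBEC3B in RefSeq. It had no row in the count tables, and whether the counting used strand is not given in the sources used here.

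APOBEC3C (chromosome 22, 39014257 to 39020352), a member with 1 deaminase domain, took the most reads of the family. The control inputs gave 59.0 and 57.1 CPM and the knockdown inputs 54.3 and 55.8 CPM, from 1750 to 2415 reads per library. Both knockdown values were below both control values, a pattern shared by 14.7% of all tested genes in this direction. The means were 58.0 ± 1.37 and 55.0 ± 1.04 CPM (SD, n = 2 each). The log2 fold change was -0.08 ± 0.08 (SE, edgeR adjusted p = 1.00, unadjusted p = 0.37), with a 95% interval of -0.26 to 0.11, that is 0.835-fold to 1.08-fold. For this gene the spread between replicates was small enough that a change as large as 1.5-fold in either direction lay outside the interval.

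APOBEC3F (chromosome 22, 39040864 to 39055972) and APOBEC3G (39077005 to 39087743), the antiviral members with a pair of deaminase domains each, were read at lower levels. For APOBEC3F the control inputs gave 9.78 and 9.40 CPM and the knockdown inputs 9.21 and 10.4 CPM. The knockdown inputs lay on either side of the controls, and the log2 fold change was 0.03 ± 0.16 (SE, 95% interval -0.34 to 0.41, edgeR adjusted p = 1.00). For APOBEC3G the corresponding values were 5.26 and 4.89 CPM, then 4.25 and 5.69 CPM. Here too the knockdown inputs enclosed the controls, with a log2 fold change of -0.03 ± 0.24 (SE, 95% interval -0.56 to 0.51, edgeR adjusted p = 1.00). The sign of APOBEC3F turned without knockdown replicate 2 (-0.06) and that of APOBEC3G without control replicate 1 (0.02) and without knockdown replicate 1 (0.17), so neither gene has a settled direction. APOBEC3G was detected at 156 to 219 reads per input, in libraries where the T and NK cell markers had 0 to 2 reads each.

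APOBEC3D (chromosome 22, 39021127 to 39033277), an antiviral member whose gene lies between APOBEC3C and APOBEC3F, was nearly without reads. It had 1 and 3 reads in the control inputs and 1 and 2 in the knockdown inputs, 7 in all, so it fell under the filter on low counts and no fold change is given. The order of the family by reads was therefore APOBEC3C first, then APOBEC3B and APOBEC3F, whose ranges of 8.39 to 15.3 and 9.21 to 10.4 CPM overlapped, then APOBEC3G, then APOBEC3D. These are reads per gene and not per length, since exon lengths were not used here, so the order is not one of transcript numbers.

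**Figure D1:**
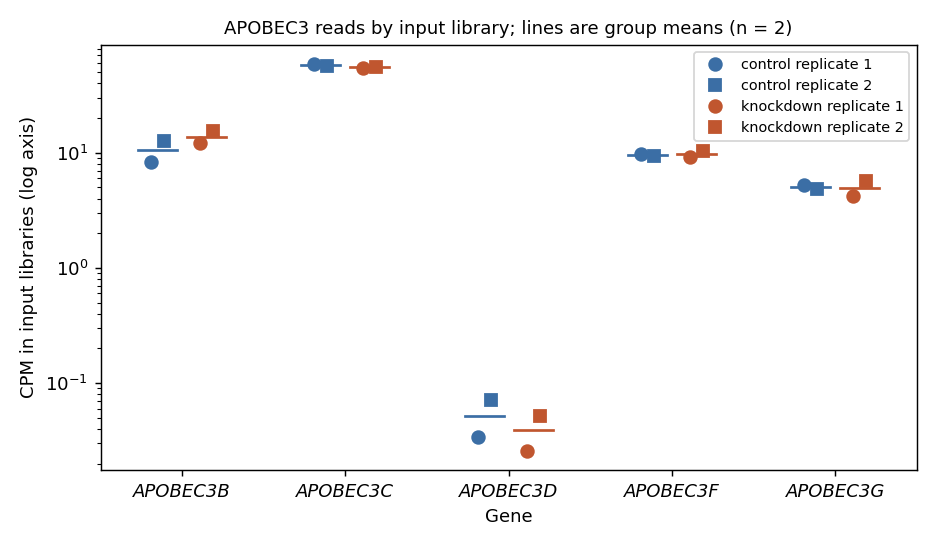
CPM (log axis) of the 5 APOBEC3 genes with a row, for each input library, with controls in blue and knockdowns in orange and lines at the group means (n = 2). APOBEC3C sits at 54.3 to 59.0 CPM in all inputs, APOBEC3B spreads most among the tested genes, from 8.39 to 15.3 CPM, and APOBEC3D lies under 0.1 CPM on 1 to 3 reads.

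**Figure D2:**
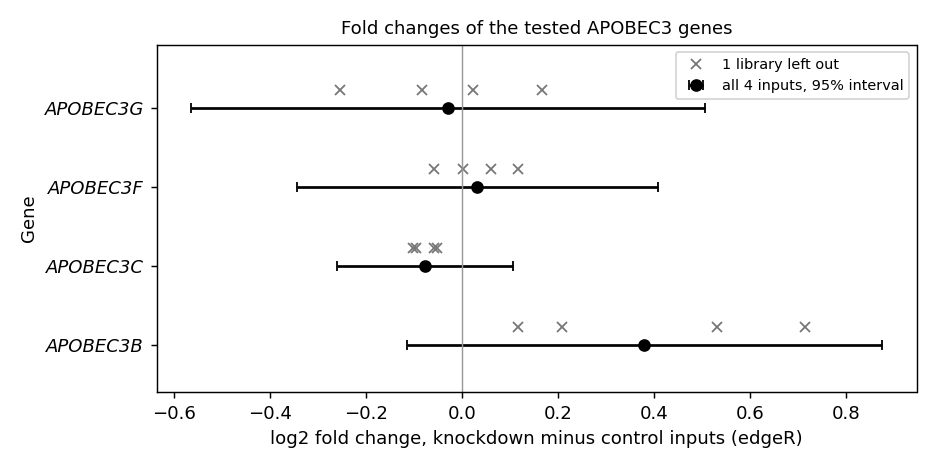
Log2 fold changes (knockdown minus control inputs, edgeR) of the 4 tested APOBEC3 genes with 95% intervals, and as crosses the values with 1 library left out. All 4 intervals include 0, that of APOBEC3C is the narrowest (-0.26 to 0.11), and the crosses of APOBEC3B run from 0.12 to 0.71.

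Summed over the family, the groups differed by less than the spread between replicates. The members together took 82.5 and 84.1 CPM in the control inputs and 80.0 and 87.2 CPM in the knockdown inputs, which lay on either side of the controls (83.3 ± 1.18 and 83.6 ± 5.10 CPM, SD, n = 2 each). An exact two-sided permutation test gave p = 1.00, where the smallest p that 2 against 2 samples allow is 0.333. Within the family, APOBEC3B took 10.2% and 15.1% of member reads in control and 15.3% and 17.6% in knockdown. Their 95% Wilson intervals, which cover counting error only, were 9.04% to 11.4%, 14.0% to 16.3%, 14.1% to 16.6% and 16.3% to 18.9%. Control replicate 1 stood below the other inputs. Both knockdown shares were above both control shares, but control replicate 2 and knockdown replicate 1 differed by less than their counting error.

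The mean APOBEC3B share was 12.6 ± 3.48% in control inputs, against 16.4 ± 1.61% after knockdown (SD, n = 2 each, exact two-sided permutation p = 0.333, the smallest this design allows, so it cannot pass 0.05). APOBEC3C took 71.5% and 67.8% of member reads in control and 67.8% and 63.9% in knockdown (exact two-sided permutation p = 0.667, n = 2 each). APOBEC3F held 11.2% to 11.9% and APOBEC3G 5.32% to 6.53% of member reads over the 4 inputs, with no separation of the groups. These shares depend on each other, because a higher share of APOBEC3B lowers the rest.

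**Figure D3:**
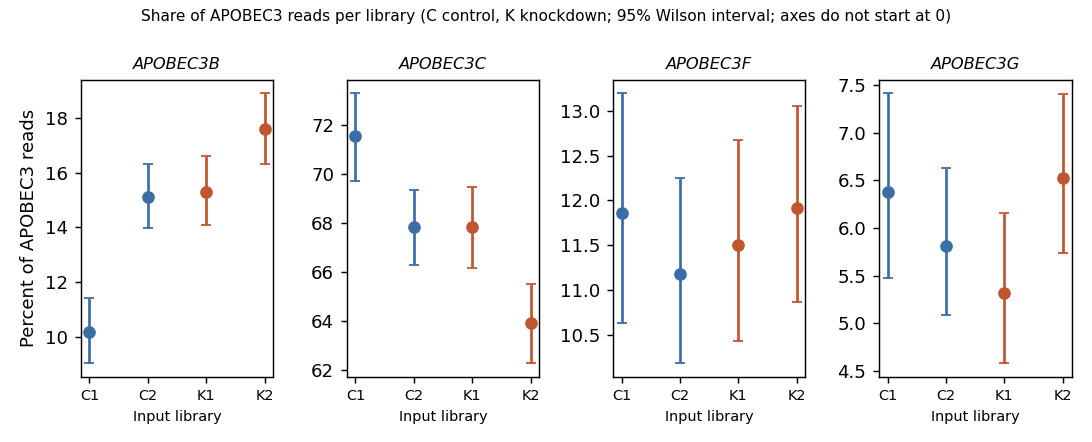
Percent of all APOBEC3 reads taken by each of the 4 tested genes in each input library (C control, K knockdown), with 95% Wilson intervals that cover counting error only. Control replicate 1 has the lowest APOBEC3B share (10.2%) and the highest APOBEC3C share (71.5%), and knockdown replicate 2 the reverse (17.6% and 63.9%).

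Genes whose profile over the inputs was most like that of APOBEC3C included PHF12, GRK5, GALNT2 and ZBED8. Likeness was the root mean square difference of centred log2 CPM over the 4 inputs among 10615 genes with a mean of at least 5 CPM. It was 0.0033 for PHF12 and 0.0073 for ZBED8, against a median of 0.0948 over those genes. Over 4 libraries such a ranking is a description and carries no test.

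m1A peaks were listed at the start of APOBEC3C in 3 of 4 samples. The peak covered chromosome 22, 39014135 to 39014379, in control replicate 1 (build hg38). It covered 39014127 to 39014379 in knockdown replicate 1 and 39014086 to 39014379 in knockdown replicate 2. The peaks ended at the same base and shared 245 bases. Each reached from 122 to 171 bases before the RefSeq start of the gene to 123 bases into it, and all were assigned by the authors to transcript ENST00000361441. Control replicate 2 had no peak under a member name.

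**Figure D4:**
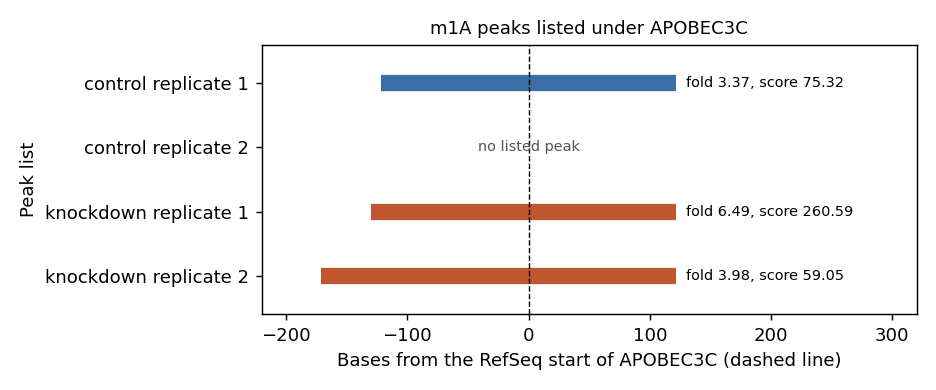
Extent of the m1A peaks listed under APOBEC3C in the 4 mRNA peak lists, in bases from the RefSeq start of the gene (dashed line). Peaks of 245, 253 and 294 bases span that start in 3 lists, and control replicate 2 has none.

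The fold enrichment over input that the authors list for this APOBEC3C peak was 3.37 in control replicate 1, 6.49 in knockdown replicate 1 and 3.98 in knockdown replicate 2. Within each list the fold ranked at percentile 7.65 of all mRNA peaks in control replicate 1, at percentile 53.2 in knockdown replicate 1 and at percentile 13.0 in knockdown replicate 2. The authors' scores, 10 times the negative log10 of the caller's p, were 75.3, 261 and 59.1, where the lists begin at 50. The peak of knockdown replicate 1 was thus mid-range, and the other peaks were near the bottom of their lists. A peak missing from control replicate 2 means no peak past those limits, and reads of the immunoprecipitated libraries at this position were not analysed here. Folds and presence were not tested between groups.

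A peak over the start of its gene is common in these data. The background came from a reference set of start sites that held only part of the genes and lacked APOBEC3C. Of mRNA peaks whose gene had a start in that set, 26.4% covered it in control replicate 1 and 29.6% in control replicate 2. The shares were 23.0% in knockdown replicate 1 and 31.6% in knockdown replicate 2. Of the 4 tested members, 1 had a peak in control replicate 1, 0 in control replicate 2, 1 in knockdown replicate 1 and 1 in knockdown replicate 2. Among all 13353 tested gene names the shares in that order were 34.7%, 24.7%, 30.9% and 22.3%. APOBEC3B, APOBEC3F and APOBEC3G, with fewer reads than APOBEC3C, had no listed peak in any sample.

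The other member with a peak was APOBEC3A, a potent mutator of DNA in many assays, in knockdown replicate 1 alone. The peak covered 63 bases, 38962495 to 38962557 on chromosome 22, and its end lay 627 bases before the RefSeq end of the gene at 38963184. The authors' fold was 14.3, at percentile 85.7 of that list, and the score was 371. APOBEC3A had no row in the count table, so no RNA level stands beside this peak. APOBEC3A resembles the second deaminase domain of APOBEC3B closely, and the reads behind the peak may belong to either gene.

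Noncoding transcripts under member names were scarce. The lncRNA table held 4 transcripts of APOBEC3G and 1 of APOBEC3F, with 0 to 12 reads per input each. All are annotated in the deposited table as overlapping exons of the coding gene on its strand, so their reads cannot be separated from it. The 1 transcript that could be tested, ENST00000494150 of APOBEC3G, had 12 and 4 reads in control and 4 and 11 in knockdown (log2 fold change -0.28 ± 0.90 SE, edgeR adjusted p = 1.00, where 0.0219% of lncRNA transcripts passed). No lncRNA peak list named a member.

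Genes that act with the family were compared through 10 lists drawn from general knowledge, 105 genes in all, of which 96 were tested. With edgeR 0 passed, as with DESeq2 and limma-voom, and 4 had an unadjusted p under 0.05, which is 4.17% against 3.3% of all genes. Median log2 fold changes of the lists ran from -0.03 to 0.10, with 0.00 over all genes. APOBEC1, APOBEC2 and APOBEC4, relatives outside the cluster, had no row.

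None of the tested inputs to APOBEC3B or of the interferon signalling genes passed. Among 11 NF-kB genes, whose pathway can induce APOBEC3B, 5 were higher and 6 lower, with REL at 0.17 ± 0.08 (log2 fold change ± SE), NFKB1 at 0.12 ± 0.08 and IKBKG at -0.25 ± 0.28. Among 12 genes of the DREAM and MMB complexes, which repress and activate APOBEC3B over the cell cycle, 4 were higher and 8 lower. MYBL2 stood at -0.15 ± 0.07, E2F5 at 0.17 ± 0.09 and LIN37, on 28 to 73 reads per input, at 0.62 ± 0.39. Of 12 interferon signalling genes 7 were higher, with the receptor IFNGR1 at 0.34 ± 0.09 (edgeR adjusted p = 1.00, unadjusted p = 0.00623), the kinase JAK1 at 0.18 ± 0.08 and IRF9 at 0.67 ± 0.38. IRF9 had 32 to 71 reads per input. IFNGR1 stood at 0.43 without knockdown replicate 1 and at 0.24 without knockdown replicate 2.

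Genes that handle uracil in DNA did not pass either. In base excision repair 8 of 14 were higher, with log2 fold changes of 0.16 ± 0.12 (SE) for XRCC1, 0.08 ± 0.08 for TDG and 0.07 ± 0.08 for MBD4. In translesion synthesis, which copies past damaged template bases such as the abasic sites left when uracil is removed, 5 of 10 were higher, with PCNA at 0.19 ± 0.07, POLH at -0.24 ± 0.12 and UBE2B at 0.10 ± 0.10. Of 10 genes for single-stranded DNA and replication stress 6 were higher, with RPA1 at -0.10 ± 0.08, CHEK1 at 0.08 ± 0.07 and TOPBP1 at 0.08 ± 0.07. In a separate list of RNA and nucleotide deaminases and cofactors, 4 of 9 tested genes were higher. CDA, on 22 to 55 reads per input, stood at -0.65 ± 0.47, DCTD at -0.10 ± 0.09 and ADAT2 at -0.06 ± 0.11. The 9 include RBM47 (0.05 ± 0.09), a cofactor and not a deaminase.

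Genes of the ligase that Vif recruits against APOBEC3 proteins, and other antiviral genes, gave 0 calls as well. Among 7 subunits and cofactors of that ligase, 3 were higher. RNF7 stood at 0.20 ± 0.09 (log2 fold change ± SE), CBFB at 0.10 ± 0.07 and CUL5 at 0.07 ± 0.08. Among 11 other restriction factors 7 were higher, with SERINC5 at 0.17 ± 0.10, SLFN11 at 0.53 ± 0.30 and SERINC3 at 0.10 ± 0.08.

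The genes beside the cluster were compared last. Within 500 kb on either side of the APOBEC3 genes, 22 genes had a row and 20 were tested, of which 10 were higher, 10 lower and 0 past the threshold (edgeR, 0 with an unadjusted p under 0.05, DESeq2 and limma-voom 0). Log2 fold changes ran from -0.61 to 0.35 with a median of 0.00. The smallest p-values belonged to RPL3, a ribosomal protein (-0.18 ± 0.10 SE), CBX6, a Polycomb subunit (-0.14 ± 0.08), and the growth factor PDGFB (-0.61 ± 0.38). RPL3 stood at -0.34 without knockdown replicate 1 and at -0.04 without knockdown replicate 2. Its CPM was 461 in knockdown replicate 2, 569 in knockdown replicate 1, and 587 and 580 in the control inputs. Peaks under these 22 genes numbered 6 and 4 in control and 8 and 2 in knockdown, in lists of 6701, 4319, 5793 and 3686 mRNA peaks. They fell on 5, 4, 5 and 2 of the 20 tested genes in that order, against 34.7%, 24.7%, 30.9% and 22.3% of all tested gene names.

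**Figure D5:**
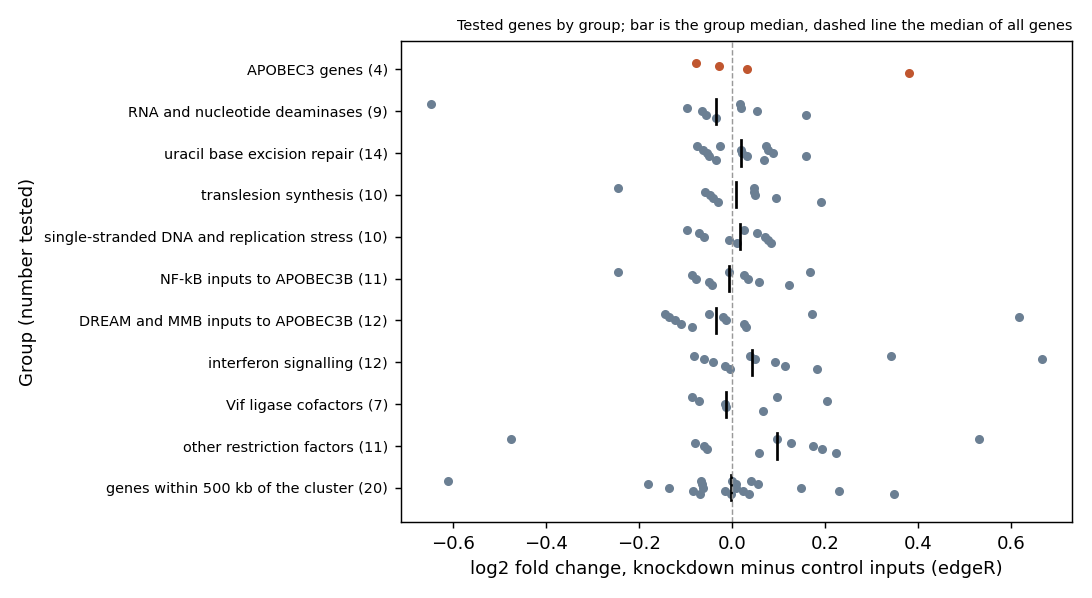
Log2 fold changes (knockdown minus control inputs, edgeR) of the tested APOBEC3 genes, of 9 lists of genes that act with them and of genes within 500 kb, with group medians as bars and the median of all genes as a dashed line. APOBEC3B (0.38) is the right-most APOBEC3 point, and list medians lie between -0.03 and 0.10.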

How the data were processed

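Raw counts of the 4 inputs were deposited by the authors in an mRNA table by gene and an lncRNA table by transcript, per the file headers. The m1A peaks were called sample by sample, and the deposited lists give each peak a fold enrichment (a ratio) and a score. The score equals 10 times the negative log10 of the caller's p, per the file headers. The submitters' processing notes name STAR, edgeR, HISAT2 2.0.4 and HTSeq 0.9.1, and build hg38, without saying what each did. RNA was depleted of rRNA and made into directional libraries, per the labels' protocols. The 8 columns of normalized values were left aside. Listed genes have at least 1 count over the inputs.

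Knockdown inputs were compared with control inputs by the quasi-likelihood test of edgeR 4.0.16 under R 4.3.3. Genes had to pass filterByExpr (minimum count 10), libraries were scaled by TMM, and p-values were adjusted over all tested genes (Benjamini-Hochberg, threshold 0.05). Standard errors and 95% intervals follow from the F statistic. The alternatives used DESeq2 1.42.0, voom from limma 3.58.1, size factors in place of TMM, a replicate block, 2 other filters, and each input left out, where a lone sample was assumed to vary like the other group. The scripts were checked on simulated data. Gene positions came from RefSeq on GRCh38.p14, and positions count from 1. The text names all members, the 3 genes of smallest p in each list and among the neighbours, TRMT61A, and, of the 5 genes most like the member with most reads, those reported here; some items are not reported here. Members and lists were chosen with earlier results of these data known.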

Additional observations from a re-analysis of the deposited data

How the results depend on the processing

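No member passed under any of the 10 alternatives run on the count test. APOBEC3B stayed positive and APOBEC3C negative under all 10, at -0.10 to -0.05 for APOBEC3C. Leaving out 1 library gave 0.12 to 0.71 for APOBEC3B, -0.06 to 0.12 for APOBEC3F and -0.25 to 0.17 for APOBEC3G. The sign turned for APOBEC3F without knockdown replicate 2 (-0.059) and for APOBEC3G without control replicate 1 (0.024) or knockdown replicate 1 (0.17). The number of all genes past the threshold was 5 as reported, 24 with DESeq2, 3 with limma-voom, 14 with no filter and 11 to 135 without 1 library (135 without knockdown replicate 1), and the cause was not tested. For the gene lists and for the genes beside the cluster, alternatives added after the data were seen gave 0 to 1 genes past the threshold without 1 library and 0 otherwise. Of 4 peaks under member names, 2 had a score of at least 100, namely APOBEC3A (371) and APOBEC3C (261) in knockdown replicate 1. The APOBEC3C peaks of control replicate 1 and knockdown replicate 2 fell below that score.

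With the replicate number as a block, 15 genes passed and APOBEC3B had a log2 fold change of 0.40 (edgeR unadjusted p = 0.0271, adjusted p = 0.746), and no member's call changed. Nothing in the labels says that a replicate number marks a shared culture or day. Differences between replicates 1 and 2 in control and knockdown correlated at 0.04 over 13362 genes. That value cannot decide whether samples of the same number share one. APOBEC3D had 7 reads over the inputs, too few for a fold change, and the depth of the immunoprecipitated libraries was not analysed here.
APOBEC3A, APOBEC3D and APOBEC3H have no fold change under any setting reported here.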
